A study of Mus musculus with 8 samples.

Results

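The aquaporins are membrane channels for water and, in some members, for glycerol. The 9 genes described here, Aqp1, Aqp2, Aqp3, Aqp4, Aqp5, Aqp6, Aqp7, Aqp8 and Aqp11, were taken by gene symbol from the 24151 genes in the deposited tables. RNA was sequenced from embryonic kidneys of ICR mice, an outbred strain, in 8 libraries. Dams entered timed matings at 8 weeks of age. From gestation day 7.5 to 11.5 they received a daily subcutaneous injection of chlorpyrifos (CPF), an organophosphate insecticide, at 5 mg/kg in dimethyl sulfoxide (DMSO), or the same volume of DMSO alone. Both groups were therefore injected and both received the solvent. For each agent there was 1 library at each of 4 embryonic days (E), namely E12.5 and E14.5, then E16.5 and E18.5, so each stage had 1 CPF and 1 DMSO library and no replicate. How many animals or litters went into a library is not stated, and the first collection followed the last injection by a day.

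Aquaporins form tetramers in which each subunit has its own pore. In the adult kidney, AQP1 carries water across the proximal tubule and the thin descending limb of Henle's loop. In the collecting duct, vasopressin moves AQP2 to the apical membrane of principal cells, and water then leaves through AQP3 and AQP4 on the basolateral side. AQP7 passes glycerol as well as water in the late proximal tubule, and AQP11 is an intracellular member whose loss gives cystic proximal tubules in mice. AQP6 sits in vesicles of intercalated cells, the acid-base cells of the collecting duct, whereas AQP5 and AQP8 are better known from glands, lung and the digestive tract.

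Several members are neighbours in the genome (GRCm38.p6, RefSeq). Aqp2 (chr15:99579056-99584545), Aqp5 (chr15:99591028-99594829) and Aqp6 (chr15:99598468-99605478) follow each other with gaps of 6482 and 3638 bases, and no other gene lies wholly within these gaps. A long non-coding gene, Gm34765, overlaps all 3 of them, and because no source states that strand was used in the counting, its reads cannot be told apart from theirs. Aqp7 (chr4:41033074-41048237) and Aqp3 (chr4:41092724-41098183) are 44486 bases apart. Aqp1 (chr6:55336299-55348555), Aqp11 (chr7:97726379-97738247) and Aqp8 (chr7:123462294-123468003) have no member close by.

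The 250 bases upstream of the annotated start are shown for the first water channel of the nephron, for the apical and a basolateral channel of the collecting duct, and for Aqp5, the neighbour of Aqp2 whose course over the stages differed most from it. The RefSeq promoter table held 8 of the 9 members, and Aqp4 was not among them. Sequences are from GRCm38.p6, written 5′ to 3′ on the gene's strand, at chr6:55336049-55336298 (Aqp1, plus strand), chr15:99578806-99579055 (Aqp2, plus), chr4:41098184-41098433 (Aqp3, minus) and chr15:99590778-99591027 (Aqp5, plus). Capitals mark matches, on either strand, to the 6 motifs searched for.
Aqp1: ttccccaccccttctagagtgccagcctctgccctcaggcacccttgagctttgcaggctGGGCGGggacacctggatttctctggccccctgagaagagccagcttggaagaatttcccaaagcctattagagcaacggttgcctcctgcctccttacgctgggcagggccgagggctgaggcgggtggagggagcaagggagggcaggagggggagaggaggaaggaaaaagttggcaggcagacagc
Aqp2: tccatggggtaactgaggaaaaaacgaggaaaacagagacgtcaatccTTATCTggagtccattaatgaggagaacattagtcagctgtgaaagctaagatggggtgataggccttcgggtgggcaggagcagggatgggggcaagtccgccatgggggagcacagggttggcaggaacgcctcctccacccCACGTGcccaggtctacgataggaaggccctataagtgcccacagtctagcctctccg
Aqp3: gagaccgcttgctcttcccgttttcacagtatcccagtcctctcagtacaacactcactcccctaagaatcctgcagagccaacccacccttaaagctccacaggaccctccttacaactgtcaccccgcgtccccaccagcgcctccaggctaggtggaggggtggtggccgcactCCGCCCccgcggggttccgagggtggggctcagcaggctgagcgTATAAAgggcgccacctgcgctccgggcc
Aqp5: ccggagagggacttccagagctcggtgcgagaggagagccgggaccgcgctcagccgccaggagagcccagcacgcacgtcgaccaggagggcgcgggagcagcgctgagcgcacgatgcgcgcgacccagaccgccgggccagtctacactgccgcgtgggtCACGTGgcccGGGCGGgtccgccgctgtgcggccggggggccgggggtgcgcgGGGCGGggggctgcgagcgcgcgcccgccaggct
The cAMP response element was searched for as TGACGTCA. The AP-1 site was searched for as TGANTCA, and the GATA site by the letters AGATAA. For the TATA box the letters were TATAAA. The GC box was written as GGGCGG, and the E-box by the letters CACGTG. The Aqp2 stretch held 1 GATA match, starting 202 bases upstream of the start, and 1 CACGTG, starting 58 bases upstream. Aqp3 held a GC box and a TATA box 73 and 29 bases upstream. Aqp1 held a single GC box, and Aqp5, with a GC content of 78.4% against 55.6% in Aqp2, held a CACGTG and 2 GC boxes. None of the 8 stretches held the cAMP response element in its full form, which 1.62% of 27025 promoter stretches of this length held, or the AP-1 letters (6.87%). CACGTG, present in 6.05% of all stretches, stood in Aqp2, Aqp5, Aqp6 and Aqp8. AGATAA was in 10.3%, TATAAA in 13% and GGGCGG in 32.9% of all stretches. A match describes letters only.

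The values are TPM, transcripts per 1000000 transcripts, which divide reads by transcript length and by the library's total, so levels of different genes can be set side by side. A library was equivalent to about 19500000 to 27600000 reads as recovered from the steps of its low values, and 11714 to 12870 genes reached 1 TPM. The non-coding RNAs Rpph1 and Rmrp took 19.3% to 21.8% of all TPM in the CPF libraries but went from 19.6% at E12.5 to 41.8% at E18.5 in the DMSO libraries, which lowers every other DMSO value there. The DMSO share was already 31% at E16.5. Ratios at E18.5, and some other values, are therefore also given after rescaling to coding transcripts alone. Counting intervals are on the deposited scale. Nephron progenitor markers were present throughout: genes such as Six2 and Itga8 summed to 241 to 367 TPM in the CPF and 354 to 495 TPM in the DMSO libraries. The sum hides unlike genes. In the CPF library of E18.5 Itga8 made up 188 of 273 TPM and Six2 8.38 TPM, where DMSO had 133 and 35.1 TPM. Liver and adrenal cortex markers summed higher in the CPF library of every stage, at 221 to 6280 TPM against 23.2 to 1050 for liver and 40.6 to 681 against 16.1 to 63.7 for adrenal cortex. Exocrine pancreas markers reached 1850 TPM in the CPF library of E16.5 and lay between 36.5 and 64 TPM in the other 7 libraries. In bulk tissue, fewer cells of a type and less RNA per cell cannot be told apart.

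The summed level of the 9 aquaporins was higher at each later stage in both series. It was 8.53, 21.8, 60 and 121 TPM in the DMSO libraries in order of stage and 14.54, 32.1, 84.4 and 483 TPM in the CPF libraries. The make-up of the sum changed as well. At E12.5 in the DMSO library Aqp11 supplied 62.9% of it and Aqp1 20.5%, whereas in the CPF library of that stage Aqp1 supplied 55.9% and Aqp11 18.9%. Aqp1 led at E14.5 and E16.5 in both. At E18.5 Aqp2 had grown to 34.9% of the sum in the DMSO library, next to 34% for Aqp1, and to 30.8% in the CPF library, below the 43.5% of Aqp1.

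**Figure D1:**
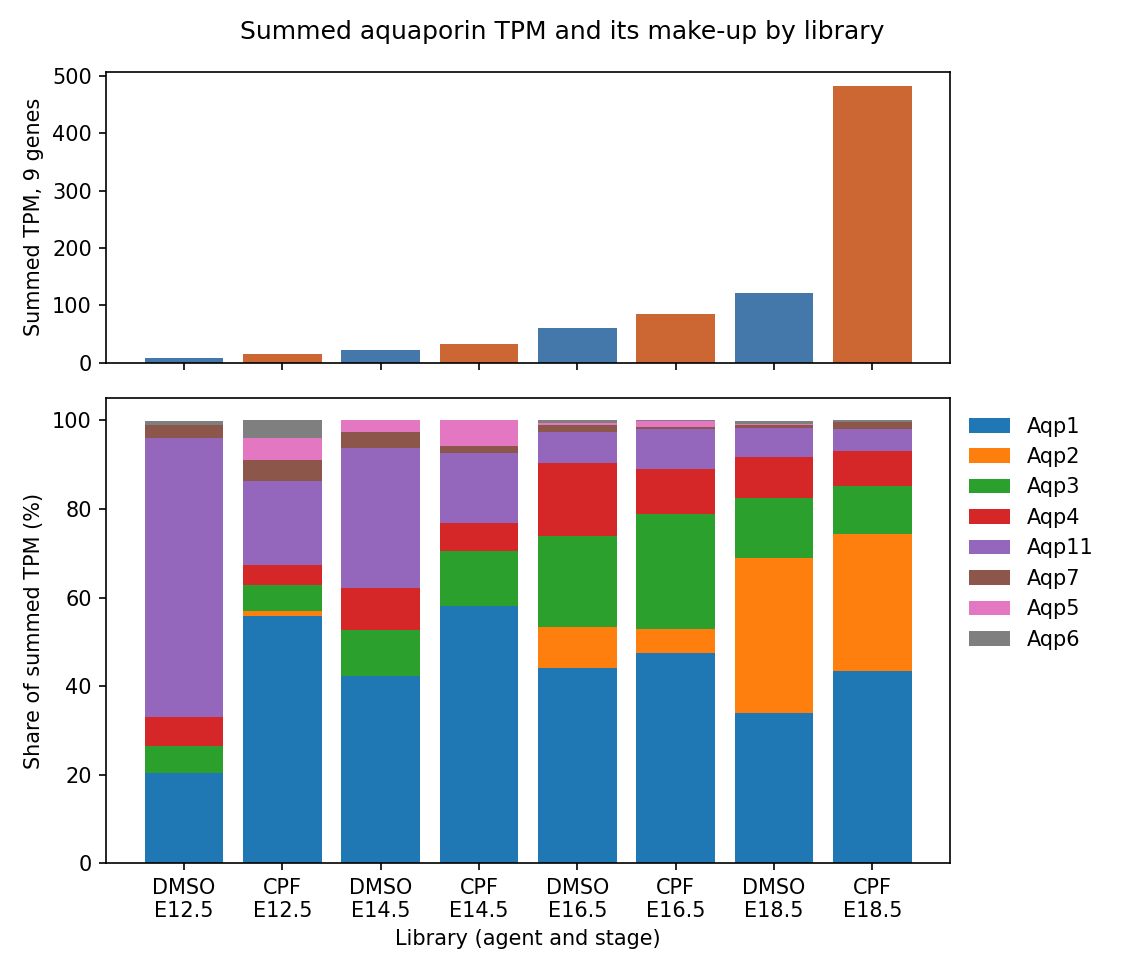
Summed TPM of the 9 aquaporins in each library (upper bars, blue for DMSO and orange for CPF) and the share of that sum from each gene in percent (lower bars, 1 colour per gene; Aqp8 was listed at 0). The sum reaches 121 TPM in the DMSO and 483 TPM in the CPF library of E18.5, and Aqp11 holds 62.9% of the sum only in the first DMSO library.

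By level per transcript length, the order in the DMSO library of E18.5 was Aqp2, Aqp1, Aqp3, Aqp4, Aqp11, Aqp7, Aqp6, Aqp5, with Aqp8 last. Counting intervals (exact Poisson, 95%, covering counting error only) did not separate Aqp2 from Aqp1 (39.6 to 45 TPM and 39.2 to 43.1 TPM) or Aqp7 from Aqp6 there. In the CPF library of E18.5 no neighbouring pair among the 8 genes with reads had overlapping intervals, and Aqp1 (205 to 216 TPM) stood above Aqp2 (142 to 155 TPM). At E12.5 the order below Aqp1 and Aqp11 was not resolved in either library: Aqp3, Aqp5, Aqp7, Aqp4 and Aqp6 ran from 0.861 down to 0.589 TPM in the CPF library, each overlapping the next.

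Aqp1 was the most abundant member in 6 of 8 libraries. It stood at 1.75, 9.24, 26.4 and 41.1 TPM in the DMSO series, in order of stage, and at 8.12, 18.6, 40.1 and 210 TPM in the CPF libraries. The CPF library was the higher at all 4 stages, with counting intervals apart at each, although the levels of the agents overlap across stages because both climb. At E18.5 the deposited level was 23.5-fold that of E12.5 with DMSO and 25.9-fold with CPF. On the coding scale it went from 2.33 to 77.1 TPM with DMSO and from 11 to 284 TPM with CPF. There the DMSO rise was the larger. The steps differed as deposited: the DMSO series gained 1.90, 1.42 and 0.62 on the log2(TPM + 1) scale from stage to stage, and the CPF series 1.10, 1.07 and 2.36. The ratio of CPF to DMSO was 4.64-fold at E12.5, 2.01-fold and 1.52-fold at the middle stages, and 5.11-fold at E18.5, the last falling to 3.69-fold on the coding scale.

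AQP1 is also a channel of red blood cells and of some endothelium, so markers of both are set beside it. Of 12 erythroid genes listed, 11 were in the tables, with Hba-a1 and Hbb-bt listed at 0 throughout, and 6 were tested. Their summed level was 36800, 17600, 916 and 31.9 TPM in the CPF libraries and 8060, 4040, 597 and 69.3 TPM in the DMSO libraries in order of stage. The erythroid sum was thus higher with CPF at E12.5, E14.5 and E16.5 and lower at E18.5. Up to E16.5 most of it was the embryonic globin Hbb-y, at 33800 TPM with CPF and 6940 TPM with DMSO at E12.5. The course of the sum over the stages is therefore mainly that of Hbb-y. Epb42, also on the list, peaked at E14.5 instead, at 66.1 TPM with CPF and 7.91 TPM with DMSO. Endothelial markers, of which 5 of 8 were tested and Tek was listed at 0, summed to 116, 98.7, 280 and 404 TPM with CPF and to 201, 114, 186 and 147 TPM with DMSO. The endothelial sum was lower with CPF at E12.5 and E14.5 and higher at E16.5 and E18.5. The part of either cell type in the Aqp1 values was not tested.

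Aqp7, the aquaglyceroporin, stayed low until the last stage. It read 0.256, 0.782, 0.856 and 1.01 TPM in the DMSO libraries and 0.681, 0.485, 0.354 and 6.97 TPM in the CPF libraries. The CPF library of E18.5 stood alone, with a counting interval of 5.98 to 8.14 TPM against 0.732 to 1.37 TPM in its DMSO partner. The other 7 libraries lay between 0.256 and 1.01 TPM, and on the deposited scale the intervals overlapped at each earlier stage. At E16.5 they overlapped narrowly, from 0.587 to 0.636 TPM. The ratio there was 0.414-fold, or 0.358-fold on the coding scale, so this overlap depends on the scale. Only the 2 libraries of E18.5 reached 1 TPM, so Aqp7 entered the tests through that stage alone. The E18.5 ratio was 6.89-fold, or 4.97-fold on the coding scale. Adipocytes are another known site of AQP7, and 1 of their 6 listed markers, Fabp4, was tested. It read 675 TPM in the CPF and 457 TPM in the DMSO library of E18.5. The whole list summed to 676 and 457 TPM there, so nearly all of the sum was Fabp4, and Plin1 was listed at 0. The part of adipocytes in the Aqp7 values was not tested.

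Aqp11 followed a course of its own. It was at 5.37, 6.94, 4.23 and 7.91 TPM in the DMSO libraries and at 2.75, 5.06, 7.67 and 23.7 TPM in the CPF libraries. The CPF library was the lower at E12.5 and E14.5 and the higher at E16.5 and E18.5, with counting intervals apart at all 4 stages. Its deposited level at E18.5 was 8.6-fold that of E12.5 with CPF and 1.47-fold with DMSO. On the coding scale Aqp11 went from 3.73 to 32 TPM with CPF and from 7.15 to 14.8 TPM with DMSO. At E12.5 it was the only tested member lower with CPF, with a log2 ratio of -0.76, and at E18.5 that ratio was 1.47 (1.06 on the coding scale).

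Aqp2, the vasopressin-regulated channel, was hardly detected before E16.5. The DMSO libraries read 0, 0, 5.67 and 42.2 TPM and the CPF libraries 0.143, 0.0665, 4.47 and 149 TPM. At E12.5 and E14.5 the CPF values rest on about 2 reads and 1 read, and the zero at E12.5 allows up to 0.171 TPM (3 reads), so a difference was not detectable at this depth. At E16.5 the 2 intervals overlapped, at 3.55 to 5.6 TPM for CPF and 4.71 to 6.8 TPM for DMSO. The ratio at E16.5 was 0.789-fold, or 0.682-fold on the coding scale. The intervals parted only at E18.5, where the ratio was 3.52-fold, or 2.54-fold on the coding scale. Aqp2 passed the filter on low values through the libraries of E16.5 and E18.5.

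Aqp3, a basolateral channel that also passes glycerol, appeared earlier. It stood at 0.504, 2.24, 12.3 and 16.3 TPM with DMSO and at 0.861, 3.9, 21.9 and 53 TPM with CPF. The CPF library was the higher at each stage, with intervals that overlapped at E12.5 and not from E14.5 on. The ratio was close to 1.7-fold at the first stages, with 1.71, 1.74 and 1.79 from E12.5 on, and reached 3.26-fold at E18.5 (2.35-fold on the coding scale). The urothelium that lines the renal pelvis is another known site of AQP3, and 6 of its 7 listed markers were tested, with Trp63 listed at 0. These summed to 10.7, 61.3, 107 and 126 TPM with CPF and to 3.43, 11.7, 41.6 and 128 TPM with DMSO. The sum hides unlike genes. At E14.5 and at E16.5, 5 of the 6 were higher with CPF. Upk3a was lower, at 0.512 and 17.2 TPM with CPF against 1.07 and 21.8 TPM with DMSO. At E18.5 their median log2 ratio was 0.12, or -0.33 on the coding scale. Their part in the Aqp3 values was not tested at any stage.

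Aqp4, the second basolateral channel, had overlapping counting intervals in the 2 series up to E16.5. The DMSO libraries read 0.57, 2.07, 9.97 and 11.2 TPM and the CPF libraries 0.675, 2.07, 8.58 and 38.2 TPM. Between E16.5 and E18.5 the DMSO series gained 0.15 on the log2(TPM + 1) scale and the CPF series 2.03. The median gene changed by -0.33 and 0.059 over that step. On the coding scale Aqp4 went from 15.8 to 21 TPM with DMSO and from 11.7 to 51.7 TPM with CPF. On the deposited scale the intervals of the 2 agents overlapped at 3 stages, and the agents differed 3.42-fold at E18.5 (2.47-fold on the coding scale). At E16.5 the ratio was 0.861-fold as deposited and 0.745-fold on the coding scale, so the overlap there depends on the scale. A long non-coding gene, A830021F12Rik, overlaps Aqp4 in the annotation. Glial markers, set beside it because AQP4 is abundant in astroglia, summed to 8.51 TPM with CPF and 5.66 TPM with DMSO at E18.5, their lowest levels in each series. The part of glia in the Aqp4 values was not tested.

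**Figure D2:**
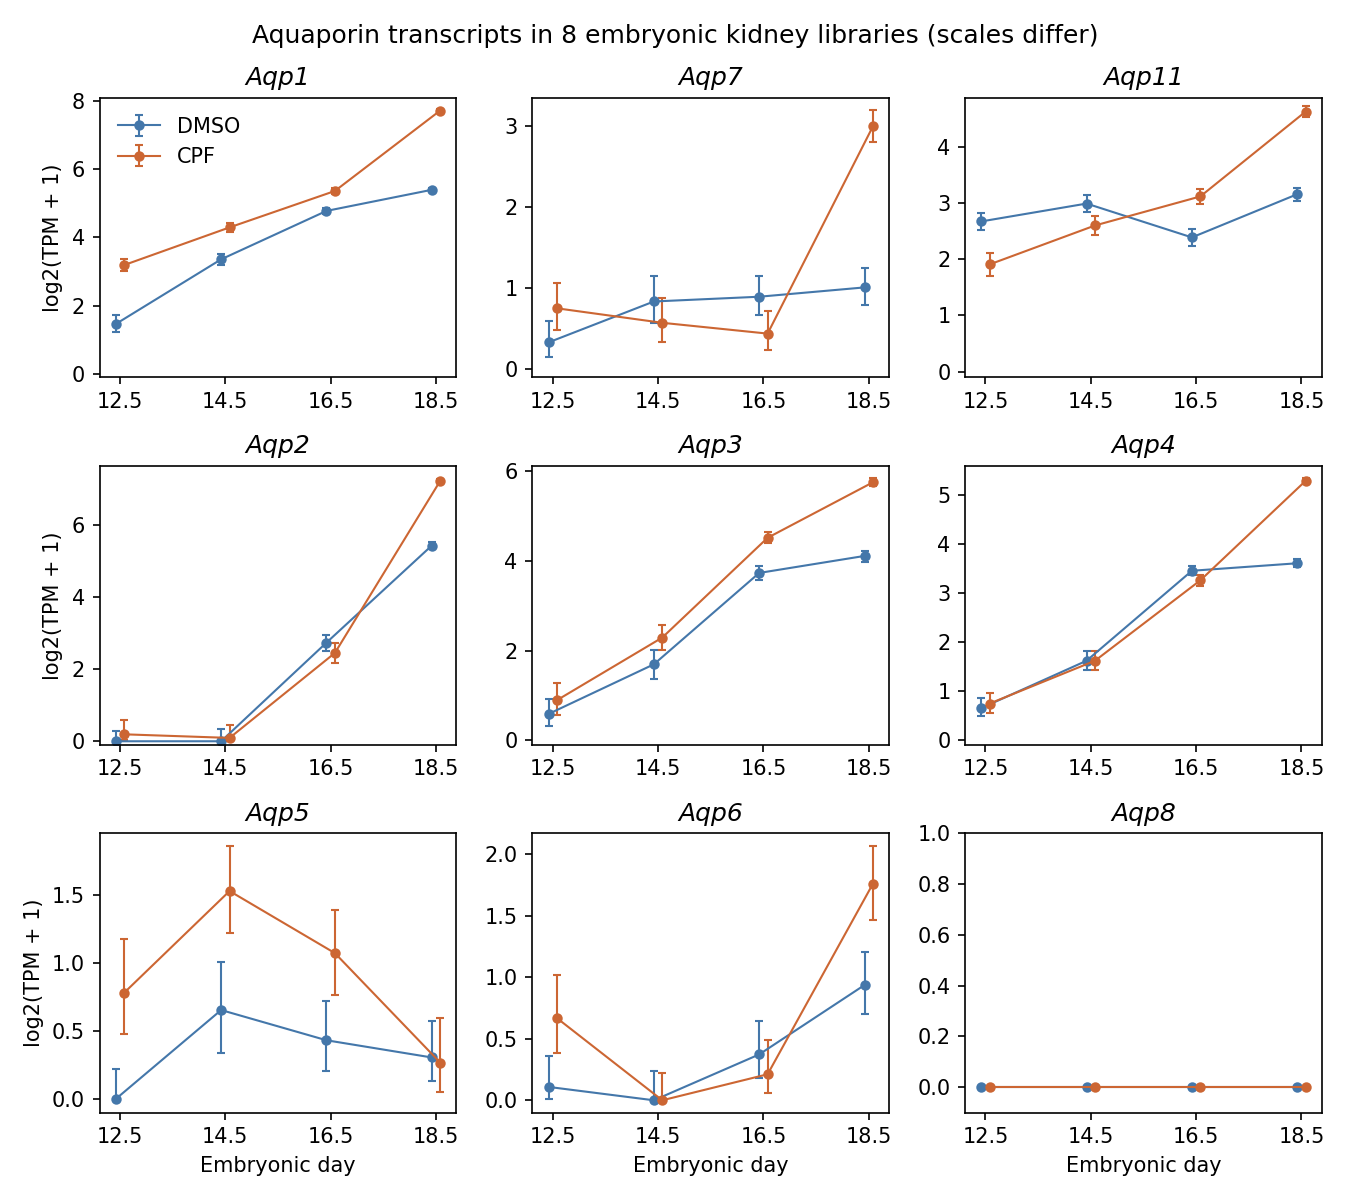
Level of each aquaporin, as log2(TPM + 1), against embryonic day, with 1 point per library (blue DMSO, orange CPF; bars are exact 95% Poisson counting intervals, not replicate spread; vertical scales differ; no interval is drawn for Aqp8, listed at 0). For Aqp2, Aqp4 and Aqp7 the agents lie together or within about 1 unit up to E16.5 and part at E18.5. Aqp1 and Aqp3 are higher with CPF at every stage, and Aqp11 crosses between E14.5 and E16.5. All values are TPM as deposited.

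The remaining members were scarce. Aqp5, a channel of secretory glands and alveolar cells, was at 0, 0.572, 0.348 and 0.235 TPM with DMSO and at 0.717, 1.88, 1.1 and 0.203 TPM with CPF. It was higher with CPF at the first 3 stages and not at the last, where the counting intervals overlapped. On the coding scale its log2 ratio at E18.5 was -0.18. It passed the filter through 2 CPF libraries, and its deposited values did not fall on whole reads for the RefSeq length used here, so its counting intervals are approximate. The 6 markers of lung and gland epithelium summed to at most 1.81 TPM in any library and none was tested. Exocrine pancreas markers summed to 58.5, 55.9, 1850 and 51.8 TPM with CPF and to 36.5, 64, 44.2 and 48 TPM with DMSO. Their part in the Aqp5 values was not tested.

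Aqp6, the vesicle channel of intercalated cells, read 0.0783, 0, 0.295 and 0.915 TPM with DMSO and 0.589, 0, 0.158 and 2.39 TPM with CPF. Its highest values were those of E18.5, from about 31 and 47 reads and 2.61-fold apart (1.88-fold on the coding scale), and at E14.5 neither library had a read. Only 1 library reached 1 TPM, so it was not tested. Aqp8 was listed at 0 in all 8 libraries. It is annotated with 2 transcripts, and genes with several transcripts were listed low in these tables: the glycolytic gene Gapdh, also with 2, never passed 0.926 TPM, so the zero of Aqp8 says little about its expression. Among aquaporins outside the 9 genes, Mip lay between 0.0757 and 1.41 TPM, Aqp9 reached at most 0.11 TPM, and Aqp12 was listed at 0.

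The change with stage was tested with limma on log2(TPM + 1), with agent and stage in the model and E18.5 set against E12.5. Of the 9 aquaporins, 7 passed the filter of 1 TPM in 2 libraries. Aqp1, Aqp2, Aqp3 and Aqp4 rose at an adjusted p under 0.05 and none fell. Over all 13677 genes tested, 639 rose (4.67%) and 510 fell (3.73%), and the median difference was -0.21. Rescaling to coding transcripts changed that balance to 1202 risen and 507 fallen, with a median at 0.

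Aqp2 had the largest difference, 6.23 ± 0.51 (SE; adjusted p = 3.55e-05, Benjamini-Hochberg), and its rise is in part what let it pass the filter. Aqp1 rose by 4.23 ± 0.43 (adjusted p = 0.000123), Aqp3 by 4.19 ± 0.43 (adjusted p = 0.000133) and Aqp4 by 3.75 ± 0.49 (adjusted p = 0.000684), each in both series. The SE measures how much the difference between the agents varied from stage to stage, not how unlike animals were. For Aqp11 the difference was 1.60 ± 0.53 (adjusted p = 0.0831) and for Aqp7 1.46 ± 0.55 (adjusted p = 0.127), neither past the threshold. On the coding scale Aqp11 passed it (1.88 ± 0.46, adjusted p = 0.0267). The difference of Aqp5 was -0.10 ± 0.41 (adjusted p = 0.907). With no filter at all, none of the 4 rises was called, since 1928 genes at 0 in every library enter the variance estimate. When only those genes were left out, an alternative chosen after seeing the data, the 4 rises were called again.

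Chlorpyrifos was compared with DMSO in the same model, over the 4 stage pairs. No aquaporin was called: 0 of 7 rose or fell at an adjusted p under 0.05 with limma, against 21 of 13677 genes higher with CPF (0.154%) and 1 lower (0.00731%). At an unadjusted p under 0.05 there were 2 aquaporins, Aqp1 and Aqp3, among 1306 of all genes. Aqp1 was higher with CPF in 4 of 4 pairs by 1.39 ± 0.30 on the log2 scale (SE, adjusted p = 0.103), beside a median of 0.15 for all genes. Aqp3 was higher in 4 of 4 pairs by 0.84 ± 0.31 (adjusted p = 0.374). Among 14 alternative settings, limma called Aqp1 only with a stricter filter of 5 TPM and with the E14.5 pair left out. With that filter its adjusted p in limma was 0.0222, and 98 genes were called in all. Without the E14.5 pair its difference was 1.55 ± 0.39 (limma adjusted p = 0.00912), and 221 genes were called. Aqp1 was not called on the coding scale (limma adjusted p = 0.126), with quantile normalization (0.272) or without the E18.5 pair (0.193).

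For the others the direction was not shared by the pairs or the difference was small against its error. Aqp5 was higher with CPF in 3 of 4 pairs, by 0.56 ± 0.29 (limma adjusted p = 0.596). It had passed the filter only through 2 CPF libraries, so its direction is not independent of the filter. Aqp2 was higher with CPF in 3 of 4 pairs, by 0.45 ± 0.36 (limma adjusted p = 0.786). For Aqp2 the pairs of E12.5 and E14.5 among these 3 rest on 2 reads and 1 read against 0. Aqp7, Aqp4 and Aqp11 were higher in 2 of 4 pairs each, with differences of 0.42 ± 0.39, 0.40 ± 0.35 and 0.26 ± 0.37 (limma adjusted p = 0.829, 0.816 and 0.895). Without the E18.5 pair the differences of Aqp2, Aqp4, Aqp7 and Aqp11 were -6.7e-06, -0.034, -0.10 and -0.14.

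**Figure D3:**
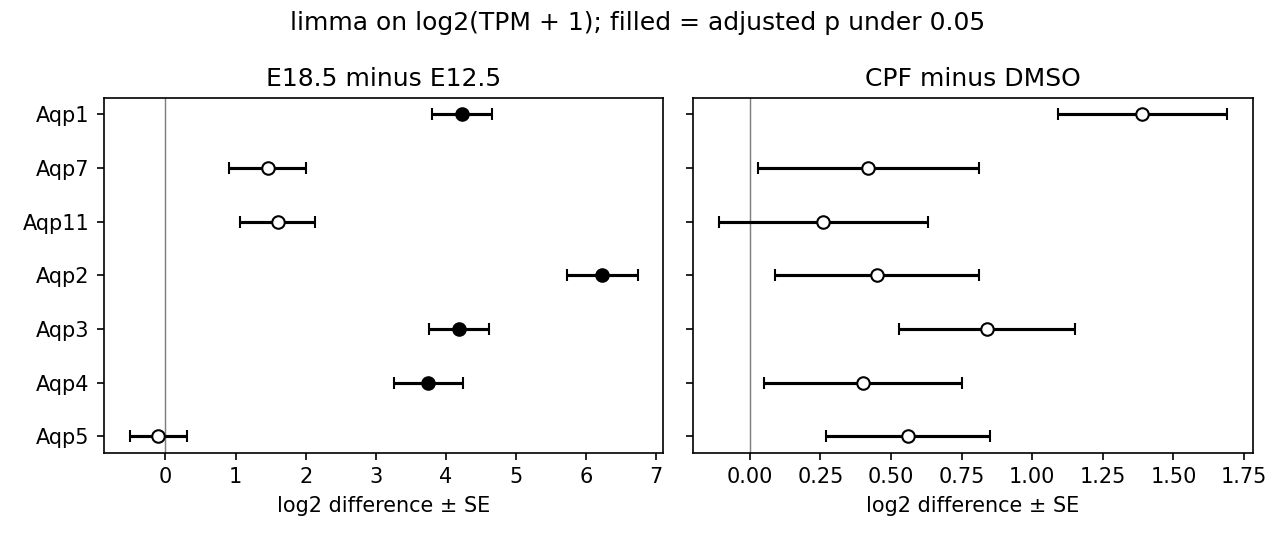
Difference in log2(TPM + 1) for the 7 tested aquaporins, with the standard error from limma as bars, for E18.5 minus E12.5 (left) and CPF minus DMSO (right); filled points have an adjusted p under 0.05. Aqp1, Aqp2, Aqp3 and Aqp4 are filled on the left, at 3.75 to 6.23, and none is filled on the right, where Aqp1 is highest at 1.39.

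Stage by stage, with 1 library against 1 and no test, the members at least 1 log2 unit apart were counted beside the same count for all genes. At E12.5 Aqp1 alone was that much higher with CPF (log2 ratio 1.73), where 6.04% of genes were higher and 2.5% lower. At E14.5 no member reached 1 in either direction, with 6.18% of genes higher and 2.16% lower, and Aqp1 stood at 0.94. At E16.5 again none did, with 7.44% higher and 3.2% lower. At E18.5, 6 of the 7 tested members were at least 1 higher and none was lower, against 20.4% of genes higher and 2.02% lower. Their log2 ratios were 2.33 for Aqp1, 1.99 for Aqp7, 1.79 for Aqp2, 1.69 for Aqp4, 1.65 for Aqp3 and 1.47 for Aqp11, and Aqp5 stood at -0.04 beside a median of 0.53 for all genes.

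After rescaling to coding transcripts, where the median gene stood at 0.16 and 9.82% of genes were at least 1 higher, the same 6 members read 1.87, 1.85, 1.34, 1.26, 1.21 and 1.06. Relative to the median of all genes on the deposited scale they were 1.79, 1.45, 1.26, 1.15, 1.11 and 0.94 higher. After quantile normalization Aqp11 was at 0.82. A single pair of libraries carries these ratios, and what varies between animals is not measured in them.

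**Figure D4:**
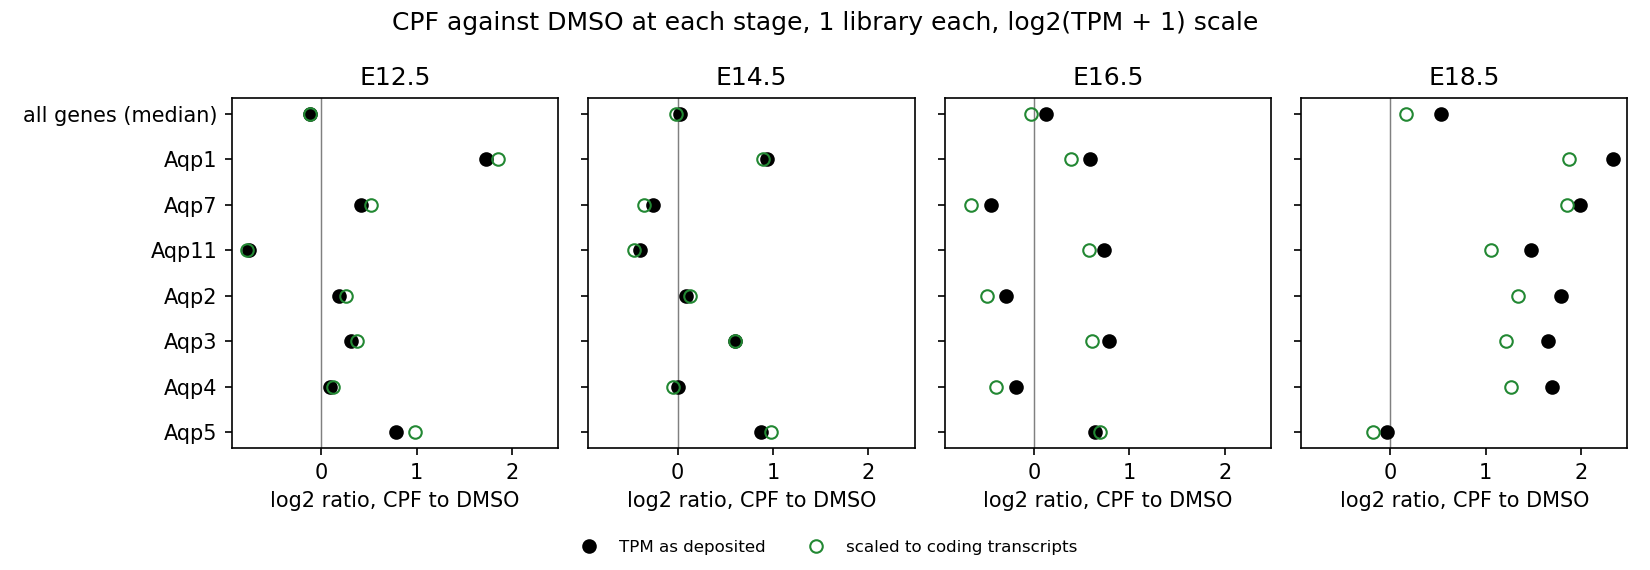
Log2 ratio of CPF to DMSO on the log2(TPM + 1) scale for 7 aquaporins and for the median of all tested genes, 1 panel per stage, 1 library per agent (filled, TPM as deposited; open, rescaled to coding transcripts). At E18.5 the 6 members other than Aqp5 lie between 1.47 and 2.33 as deposited and between 1.06 and 1.87 rescaled, to the right of the median of all genes at 0.53 and 0.16.

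Whether the course over embryonic days differed between the agents was tested with an interaction of agent and day. No aquaporin and no gene was called in either direction (0% higher, 0% lower) by limma, while 3615 genes and 1 aquaporin had an unadjusted p under 0.05. That member was Aqp11, whose slope was steeper with CPF by 0.39 ± 0.11 log2 units per day (SE, adjusted p = 0.132). The difference in slope was 0.23 ± 0.13 for Aqp4, 0.23 ± 0.19 for Aqp7, 0.22 ± 0.35 for Aqp2, 0.21 ± 0.12 for Aqp3, 0.072 ± 0.12 for Aqp1 and -0.13 ± 0.14 for Aqp5, with adjusted p from 0.28 to 0.736 in limma and a median over all genes of 0.11.

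The cells that carry these channels were followed with marker lists. Of 10 proximal tubule and thin limb markers tested, 10 rose from E12.5 to E18.5. Among them were Hnf4a, a transcription factor of the proximal tubule (5.76 ± 0.47, limma adjusted p = 3.58e-05), Slc34a1, the sodium-phosphate cotransporter (7.73 ± 0.63, adjusted p = 0.000149), and Cubn, the endocytic receptor cubilin (5.98 ± 0.61, adjusted p = 0.000435). The list summed to 11.9, 22.4, 254 and 455 TPM with DMSO and 9.58, 36, 236 and 2810 TPM with CPF. In the E18.5 pair, where 82.4% of all genes were higher with CPF, all 10 were, with a median log2 ratio of 2.57, or 2.12 on the coding scale. Aqp1 and Aqp7 read 2.33 and 1.99 in that pair. At E12.5, where Aqp1 was 4.64-fold higher with CPF, the list's sum was 9.58 TPM with CPF and 11.9 TPM with DMSO. Most of that sum was Lrp2, at 5.84 TPM with CPF and 9.91 TPM with DMSO. By gene, 7 of the 10 were higher with CPF at E12.5, as were 40.4% of all genes. Their median log2 ratio was 0.20, beside -0.12 for all genes.

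Of 7 collecting duct principal cell markers tested, 3 rose over the stages and none fell. They were the sodium channel subunits Scnn1g (2.80 ± 0.45, limma adjusted p = 0.00233) and Scnn1a (2.31 ± 0.53, adjusted p = 0.0182) and the keratin Krt8 (1.42 ± 0.33, adjusted p = 0.0206). The list's median log2 ratio in the E18.5 pair was 0.90, or 0.43 on the coding scale, where all genes had 0.53 and 0.16. All 7 were higher with CPF, as were 82.4% of all genes. Aqp2, Aqp3 and Aqp4 read 1.65 to 1.79 in that pair, and 1.21 to 1.34 on the coding scale. The named markers were unlike each other there. Scnn1g read 80.3 TPM with CPF and 24.6 TPM with DMSO, Scnn1a 25.4 and 5.08 TPM, and Krt8 219 and 117 TPM. Of 8 intercalated cell markers, 7 rose, among them the ammonium channel Rhbg (3.73 ± 0.46, adjusted p = 0.000472) and the proton pump subunit Atp6v1b1 (4.95 ± 0.60, adjusted p = 0.000716), and the median in the E18.5 pair was 1.62 (1.20 on the coding scale). None of the genes on these 3 lists was called between CPF and DMSO by limma, whereas the liver marker Ambp (3.18 ± 0.40, adjusted p = 0.0222) and the adrenal marker Akr1b7 (2.01 ± 0.29, adjusted p = 0.0222) were higher with CPF. Of 8 nephron progenitor markers, 3 fell over the stages and none rose past the threshold. These were Osr1 (-2.01 ± 0.38, adjusted p = 0.00645), Six2 (-1.76 ± 0.36, adjusted p = 0.00931) and Meox1 (-1.30 ± 0.34, adjusted p = 0.0345). The list's median in the E18.5 pair was -1.27 (-1.75 on the coding scale), with 1 of the 8 higher with CPF, Itga8, at 188 TPM against 133 TPM. How far the make-up of the tissue enters the E18.5 ratios of the aquaporins was not tested.

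The genes that control AQP2 were taken next. Of 29 listed genes for vasopressin signalling, transcription and trafficking of AQP2, 22 were tested and 2 rose: Myo5b, a myosin that carries vesicles of AQP2 (2.24 ± 0.50, limma adjusted p = 0.0204), and Rab11a, a small GTPase of the recycling endosome (1.10 ± 0.30, adjusted p = 0.0421). None fell and none was called between the agents, and the 2 of 22 is read beside the 4.67% of all genes that rose. In the E18.5 pair 21 of the 22 were higher with CPF, beside 82.4% of all genes. Their median was 0.88 beside 0.53 for all genes, and 0.43 beside 0.16 on the coding scale. Among genes for osmolyte and urea transport, 3 of 7 tested rose, among them Bsnd, which encodes barttin (4.16 ± 0.60, limma adjusted p = 0.00182), and Slc12a1, the sodium-potassium-chloride cotransporter of the thick limb (2.29 ± 0.55, adjusted p = 0.0259). Of 4 glycerol genes tested, Gpd1, glycerol-3-phosphate dehydrogenase, rose (4.04 ± 0.50, limma adjusted p = 0.000506). The osmolyte and glycerol lists had medians of 1.41 and 1.49 in the E18.5 pair, and 0.96 and 1.05 on the coding scale.

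The members differed in which genes they resembled. Pearson's r of log2(TPM + 1) over the 8 libraries, among 8432 or 8433 other genes with 1 transcript and a mean of at least 5 TPM, is a description only, since all genes share the same libraries, their depth and the order of stages. Nearest to Aqp1 were Fbln5, an elastic fibre protein (r = 0.991), Fmo1, a monooxygenase (0.990), and Ctsh, a lysosomal protease (0.990). Fmo1 shared its early difference, at 5.31 TPM with CPF and 0.313 TPM with DMSO at E12.5. Nearest to Aqp2 were genes of other functions, Ugt1a2, a glucuronosyltransferase (0.995), Nat8f1 (0.995) and Slc22a19, an organic anion transporter (0.994). Slc22a19 went from 8.04 to 261 TPM between E16.5 and E18.5 with CPF and from 8.63 to 41 TPM with DMSO.

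Nearest to Aqp3 were the epithelial genes Clic5 (0.996), Misp (0.993) and the keratin Krt7 (0.990). Nearest to Aqp4 were Sostdc1, a BMP antagonist (0.997), Atp1b1, the beta subunit of the sodium pump (0.996), and Aadat (0.996). Atp1b1 read 15, 38.6, 113 and 761 TPM with CPF and 11.8, 27.8, 133 and 175 TPM with DMSO, the same late parting as Aqp4. Nearest to Aqp7 were Gca (0.975), Cth, an enzyme of cysteine synthesis (0.973), and Car15, a carbonic anhydrase (0.967). Aqp11 had the fewest close neighbours, with 2 genes over an r of 0.95 where Aqp4 had 160, and its nearest were Bpnt1 (0.968), Vstm5 (0.960) and Atp6v0e2, a proton pump subunit (0.949).

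Red cell genes were among those most like Aqp5. Among its nearest genes were Redrum, a long non-coding RNA of red cell development (r = 0.980), and Epb42, a protein of the red cell membrane (0.977). Epb42 read 16.1, 66.1, 38.4 and 3.86 TPM with CPF and 3.19, 7.91, 5.76 and 3.98 TPM with DMSO. It shared with Aqp5 the peak at E14.5, the higher CPF values at the first 3 stages and the return to the DMSO level at E18.5. The r of Aqp5 with its genomic neighbour Aqp2 was -0.39, and with Aqp3 -0.047, where Aqp3 and Aqp4 had 0.98 and Aqp2 and Aqp4 0.94. The part of red cell RNA in the Aqp5 values was not tested.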

How the data were processed

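RNA-seq of 8 embryonic kidney libraries was analysed from the values the authors deposited, in TPM per RefSeq transcript. The submitters' processing notes name Trimmomatic (read trimming), STAR (alignment) and the mouse build mm10. How reads were assigned to transcripts, and with which tool, is not stated there. The deposited TPM were then summed per symbol over 32862 transcripts, after 52 with date-like symbols had theirs restored. Low values were whole multiples of 1 read (75.1% to 77.7% within 0.05 of a read), which gave the depth and the counting intervals. A read in a transcript of 1 kb was worth 0.0611 to 0.105 TPM. Genes with several transcripts had a median of 0.142 TPM against 3.64 TPM for genes with 1, so levels of the former are unsure.

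Tests used limma 3.58.1 in R 4.3.3 with trend and robust moderation on log2(TPM + 1), for genes with at least 1 TPM in 2 libraries, with Benjamini-Hochberg adjustment over all 13677. For the stage and agent tests, agent and stage were factors with 3 residual degrees of freedom, so p-values measure variation between stage pairs, not between animals. The slope test took day as a number, with 4 residual degrees of freedom. Its error also takes in any course over the stages that is not a straight line, and it does not measure variation between animals either. A fold on the log2(TPM + 1) scale understates the change of low genes. Members and gene lists were chosen with earlier results of these data known. All 9 members are given. Of each other list, up to 4 called genes, or else those of highest mean TPM, were eligible to be named, with the 3 genes most like each member; a few results are not reported here. The code was tested on simulated data. Alternatives were quantile normalization, coding transcripts only, other pseudocounts and filters, other designs and leaving out libraries. Sequences and positions came from RefSeq tables of GRCm38.p6. Figures were drawn with matplotlib 3.10.9 in Python 3.11.15.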

Additional observations from a re-analysis of the deposited data

How the results depend on the processing

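The rises of Aqp1, Aqp2, Aqp3 and Aqp4 from E12.5 to E18.5 were called under each alternative except that of no filter, which called 0 aquaporins and 0 genes (1149 as reported; 394 when only genes at 0 throughout were left out). Leaving out single libraries gave 4 to 6 aquaporins, with Aqp7 and Aqp11 joining, and 608 to 1637 genes. Between CPF and DMSO 1 aquaporin, Aqp1, was called with the 5 TPM filter, and leaving out a stage pair gave 0 to 1. All genes called there, 22 as reported, came to 0 with quantile normalization, no filter, a linear day or no stage term, 11 on the coding scale, 4 without trend, 83 with a pseudocount of 0.1, 98 with the 5 TPM filter, 34 without E14.5 and E16.5, and 25 to 221 with a stage pair left out. Signs of small differences changed. For CPF against DMSO, Aqp11 was at -0.0094 with quantile normalization. Leaving out a stage pair gave -6.7e-06 to 0.69 for Aqp2, -0.034 to 0.59 for Aqp4, -0.10 to 0.71 for Aqp7 and -0.14 to 0.60 for Aqp11, each lowest without E18.5. For E18.5 against E12.5, Aqp5 was at 0.035 with quantile normalization, 0.16 with the pseudocount of 0.1 and -0.51 to 0.30 with single libraries left out. The slope difference of Aqp1 was -0.012 with quantile normalization and -0.023 on the coding scale. With single libraries left out it was -0.12 to 0.22, and that of Aqp2 was -0.39 to 0.83, Aqp5 -0.35 to 0.038 and Aqp7 -0.18 to 0.50. The cause was not tested. No paired analysis beyond the stage term was possible because each agent and stage had 1 library. Depth limits Aqp5, Aqp6 and early Aqp2, which rest on few reads.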
